A study of Mus musculus with 2 samples.

Results

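Pericytes and vascular smooth muscle cells, together called mural cells, were taken from the IgE-CAI skin lesion, the ear skin of mice with IgE-dependent chronic allergic inflammation. A cell was a member if the summed level of Rgs5, Notch3 and Myh11 reached 300 CPM (counts per 1000000 reads) and if Ptprc was under 50 CPM, Pdgfra under 100 CPM and Cdh5 under 50 CPM. Of 8359 kept cells, 104 were members. The members were thus chosen by their values of these 6 genes, which are given as a description with no test, and so is every difference between the members and the other cells.

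The study compared wild-type (WT) mice with mice that lack the chemokine receptor CCR2 (Ccr2-/-, allele Ccr2tm1Mae), all male adults on the BALB/c background. Every mouse was sensitised intravenously with an IgE that binds the hapten TNP (300 µg) and challenged on the next day with TNP-OVA in the ear skin (10 µg). Cells were collected 3 and 5 days after this challenge, labelled with a hashtag antibody, mixed and sequenced as 1 library, so each genotype had a single pool at each time, and the number of mice behind a pool was not stated. No pool came from unchallenged skin, so no value below is a response to the challenge. The tissue was digested with Liberase and cells were taken from a Percoll interphase, so the numbers of cells are those of cells that survived this isolation.

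Of the 104 members, 87 were given to a pool by their hashtag. These were 28 in WT on day 3, 6 in WT on day 5, 28 in Ccr2-/- on day 3 and 25 in Ccr2-/- on day 5. The other 17 had no pool. A member held a median of 28716 reads (range 3169 to 253366), against 32682 for the other kept cells. The summed reads of the members of a pool were 1780027 and 478395 in WT on days 3 and 5, and 801473 and 978357 in Ccr2-/-. In WT on day 5 a single cell gave 53.0% of these reads, which limits every level in that pool. As a check of the labels, Ccr2 was at 347 and 341 CPM over all kept cells of the WT pools and at 13.3 and 11.9 CPM in the Ccr2-/- pools. Among the members it was at 80.9 and 4.18 CPM in WT and at 2.50 and 2.04 CPM in Ccr2-/-.

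Mural cells wrap the endothelial tube of blood vessels. Pericytes sit on capillaries and venules inside the shared basement membrane, whereas smooth muscle cells form contractile rings around arteries and arterioles. Endothelial PDGF-B, acting on the receptor encoded by Pdgfrb, recruits them, and Notch ligands on the endothelium act on Notch3. Rgs5 encodes a protein that shortens G protein signalling and is widely used as a pericyte marker, and Myh11 encodes the myosin heavy chain of smooth muscle. On GRCm38, by GENCODE annotation, Rgs5 lies at chr1:169655501-169695813, Notch3 at chr17:32120820-32166852 and Myh11 at chr16:14194535-14291372.

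The gene list for smooth muscle contraction includes Acta2 and Myl9, whose proteins are the smooth muscle actin and the regulatory myosin light chain. Their promoters are shown because, of the 19 contractile genes with a RefSeq promoter window (250 bases before to 50 after the start, GRCm38.p6), these were the 2 that held a CArG box, the letters that serum response factor is known to bind. The box was searched on both strands as CC, then 6 bases of A or T of which up to 1 may be G or C, then GG, and the boxes are in capitals. The Acta2 stretch lies at chr19:34255374-34255482 on the minus strand, with boxes 84 and 34 bases before the start. The Myl9 stretch lies at chr2:156775278-156775399 on the plus strand, with boxes 161 and 99 bases before the start.
Acta2: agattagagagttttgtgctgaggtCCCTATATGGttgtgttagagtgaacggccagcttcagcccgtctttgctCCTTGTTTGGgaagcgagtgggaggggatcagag
Myl9: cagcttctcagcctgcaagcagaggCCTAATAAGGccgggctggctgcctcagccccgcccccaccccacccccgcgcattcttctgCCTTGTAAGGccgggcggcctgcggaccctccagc

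The box stood in 10.5% of the contractile genes with a window and in 11.05% of all 17820 genes with one, so its share in the list was near the background. Without the permitted G or C it stood in 1 of the 19 genes, Myl9, and in 1.73% of all genes. These matches are descriptions of letters and say nothing about binding.

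The members were not 1 kind of cell. Rgs5 had the higher level of the pair Rgs5 and Myh11 in 77 cells (Rgs5-led), Myh11 in 11 cells (Myh11-led), and 16 cells had no read of either gene and had passed the rule through Notch3 alone. Only 2 cells had both levels within 2-fold of each other. A read of Rgs5 was found in 84 members, of Notch3 in 77 and of Myh11 in 58, and 47 had reads of all 3. The members nearest the limit had marker sums of 301, 303 and 316 CPM, and the nearest cells outside had 270, 268 and 246 CPM. Median depths were 34477 reads for Rgs5-led cells, 24957 for Myh11-led cells and 23330 for the 16 cells.

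**Figure D1:**
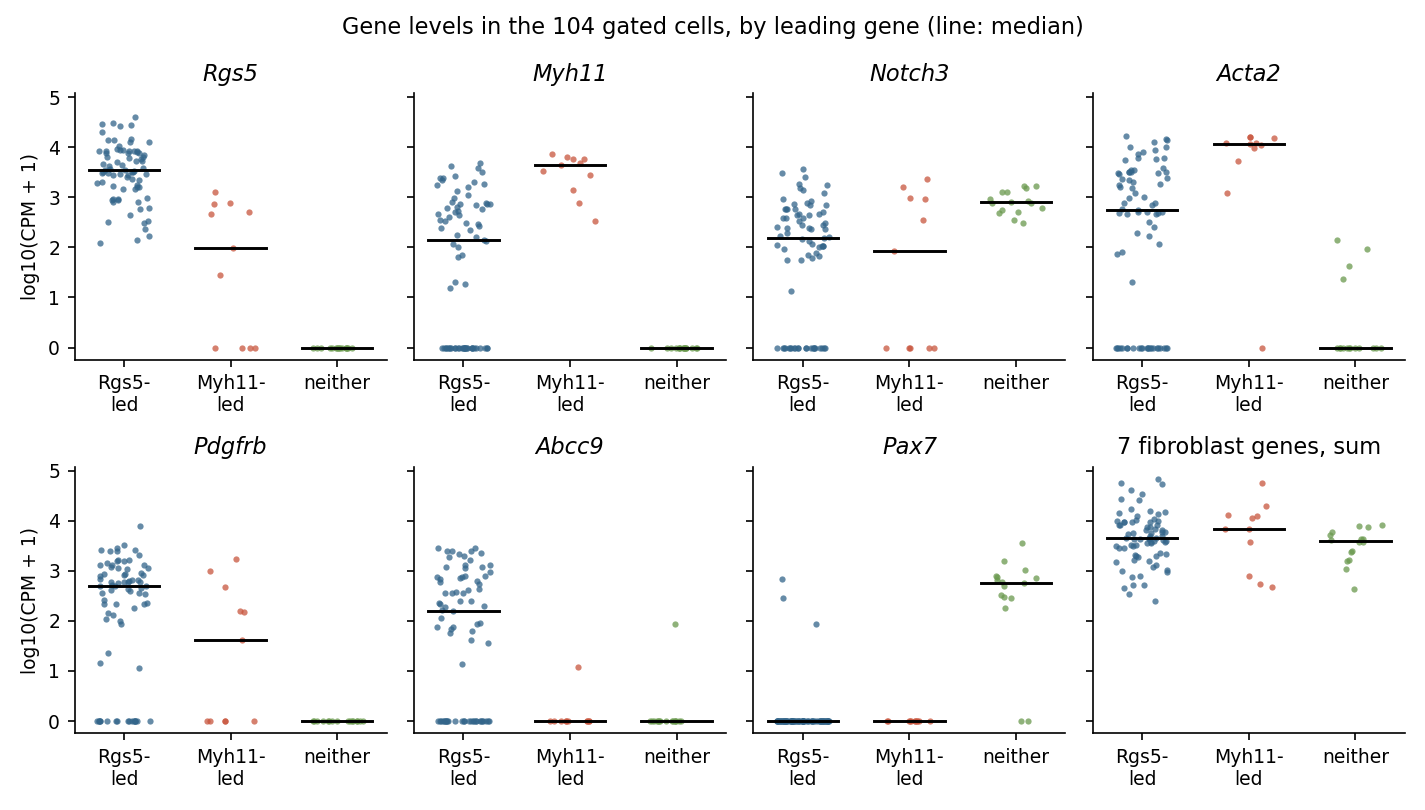
Levels in each of the 104 cells, as log10(CPM + 1), for 7 genes and for the sum of 7 fibroblast genes, by leading gene; each point is 1 cell and the line is the median. Rgs5 and Myh11 separated the groups by construction, Abcc9 was read in 50 of the 77 Rgs5-led and 1 of the 11 Myh11-led cells, and Pax7 in 14 of the 16 cells with neither gene.

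The labelled identity was checked against markers that the rule did not use. Acta2 was read in 68 members, at 2718 CPM over all members, and was 52.8-fold over the other kept cells. The genes with the largest ratio over the other kept cells, among those read in at least 50% of the members and apart from the 3 of the rule, were Tagln (76.0-fold), Myl9 (73.9-fold), Des (73.0-fold), Acta2, Tpm2 (37.6-fold), Itga7 (36.7-fold), Gm13889 (34.8-fold), Mylk (27.9-fold), Abcc9 (27.1-fold), Sparcl1 (23.1-fold), Tinagl1 (18.7-fold) and Itga1 (15.01-fold). Of these 12 genes, 7 stood on the contractile list, counting Tinagl1. Tinagl1 did not set the members apart from endothelial cells. It was at 370 CPM in the members and at 401 CPM in the endothelial gate (Cdh5 of 100 CPM or more, defined in full below). Tagln and Tpm2 encode actin-binding proteins, Des the muscle intermediate filament and Mylk the kinase that turns on smooth muscle myosin. Abcc9 encodes the sulfonylurea receptor subunit of the potassium channel of pericytes.

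Most pericyte genes were higher in Rgs5-led than in Myh11-led cells. Abcc9 was at 508 CPM in them and at 4.77 CPM in Myh11-led cells. Kcnj8, the pore of the same channel, was at 282 CPM and 54.9 CPM. Rgs4, a relative of Rgs5, was at 362 CPM and 129 CPM, and Ndufa4l2, a mitochondrial protein gene, at 374 CPM and 69.2 CPM. Pdgfrb was at 779 CPM and 596 CPM, so by summed reads the receptor set the classes apart less than the channel genes did. A single Myh11-led cell of WT on day 3 held 182166 of the 419281 reads of its class. In it Pdgfrb was at 1010 CPM and the 7 fibroblast genes at 56158 CPM, so the Myh11-led level of Pdgfrb leans on this cell. Higd1b was read in 30 of the 77 Rgs5-led cells and 1 of the 11 Myh11-led cells, and Cox4i2 in 34 and 1. Cspg4, which encodes the pericyte proteoglycan NG2, was an exception, read in 13.1% of Rgs5-led and 25% of Myh11-led cells thinned to 10000 reads, and in 14 members in all.

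Myh11-led cells carried the contractile genes. Acta2 was at 7336 CPM in them and at 2502 CPM in Rgs5-led cells. Myl9 was at 3206 CPM and 503 CPM, and Tpm2 at 4038 CPM and 542 CPM. Mylk was at 3501 CPM and 991 CPM, and Tagln at 2991 CPM and 963 CPM. Cnn1, the gene of calponin, was at 556 CPM and 19.01 CPM, and Lmod1, the gene of leiomodin, at 241 CPM and 68.3 CPM. Slc22a3, a transporter for organic cations and monoamines, was read in 6 of the 11 cells and in 1 other member. The summed contractile list had a median of 43741 CPM in Myh11-led cells and 8324 CPM in Rgs5-led cells. The planned test between the classes was not possible, because only WT on day 3 held 5 or more cells of both.

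With each cell thinned to 10000 reads, which left out 16, 3 and 1 shallower cells of the 3 groups, Acta2 was read in 73.8% of 61 Rgs5-led cells, in all 8 Myh11-led cells and in 6.67% of the 15 with neither gene. Unthinned it was read in 54 of 77, 10 of 11 and 4 of 16. In the leukocyte gate (kept cells with Ptprc of 50 CPM or more and a marker sum under 300 CPM, median 19633 reads), which should lack the gene, 9.45% of cells had an Acta2 read. Abcc9 was read in 68.9%, 0% and 6.67% of the thinned cells, against 4.97% of the leukocyte gate. Pdgfrb was read in 77.0%, 62.5% and 0%, against 7.09%. A share of 6.67% is 1 cell of 15 and is read as background, next to the shares of the leukocyte gate.

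The data went against the label for the 16 cells with neither Rgs5 nor Myh11. Pax7, a transcription factor known from muscle satellite cells, was read in 14 of them and in 3 of the other 88 members, and was at 673 CPM. Chodl was read in 14, Cdh15 (a muscle cadherin) and Fgfr4 in 11 each, Myf5 in 9 and Myod1 in 7, the last 2 being muscle determination factors. Thinned to 10000 reads, Pax7 was found in 93.3% of 15 cells, against 4.92% of Rgs5-led cells and 0.184% of the unthinned leukocyte gate. All of these but Myod1 stood among the first genes by ratio over the other kept cells, of those read in at least 50% of the 16 cells, together with Bmp6 (607 CPM, 8 cells) and Notch3.

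The same 16 cells held no read of Rgs5, Myh11, Tagln, Pdgfrb or Kcnj8, which at 407122 reads allows up to 7.37 CPM each. Acta2 was at 22.1 CPM in them and at 2502 CPM in Rgs5-led cells, and Sparcl1 at 167 CPM and 2646 CPM. Des, which skeletal and smooth muscle share, was at 447 CPM, and Heyl, a Notch target, at 189 CPM. The early response genes Fos, Egr1 and Fosb were at 9592, 7988 and 6268 CPM, against 3512, 970 and 881 CPM in Rgs5-led cells. The cells are therefore called Notch3-only cells here. Of 38 kept cells with Pax7 at 100 CPM or more, 16 were members, 20 had a marker sum under 300 CPM and 6 had a gene over an upper limit, some of them both, so the rule took in a fraction of such cells.

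With all members counted, their share among the kept cells was lower on day 5 than on day 3 in both genotypes. The 4 pools are too few for a test to pass. The share was 1.74% (95% exact binomial interval 1.16 to 2.50) of 1613 cells in WT on day 3 and 0.550% (0.202 to 1.19) of 1091 cells on day 5. In Ccr2-/- it was 1.23% (0.820 to 1.77) of 2274 cells on day 3 and 0.991% (0.643 to 1.46) of 2522 cells on day 5. Without the Notch3-only cells the share was 1.67% and 0.550% in WT on days 3 and 5. In Ccr2-/- it was then 0.836% and 0.912%, higher on day 5. The WT pool of day 5 was lowest and that of day 3 highest, with the Ccr2-/- pools between them.

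The mean difference between Ccr2-/- and WT was -0.0316 percentage points (exact two-sided permutation test over 4 pools, p = 1) and that between days was -0.713 percentage points (p = 0.33), where 0.33 is the smallest p that 2 pools against 2 can give. The genotype difference turned positive without WT day 3 (0.561) or without Ccr2-/- day 5 (0.0884) and was -0.625 without WT day 5. Among kept cells with Ptprc under 50 CPM, which leaves out most leukocytes, the shares were 3.08%, 0.985%, 1.90% and 1.74% in the same order. For each member there were 2.18, 5.17, 2.04 and 2.60 cells of the endothelial gate (Cdh5 of 100 CPM or more, with Ptprc, Pdgfra and the marker sum under their limits).

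**Figure D2:**
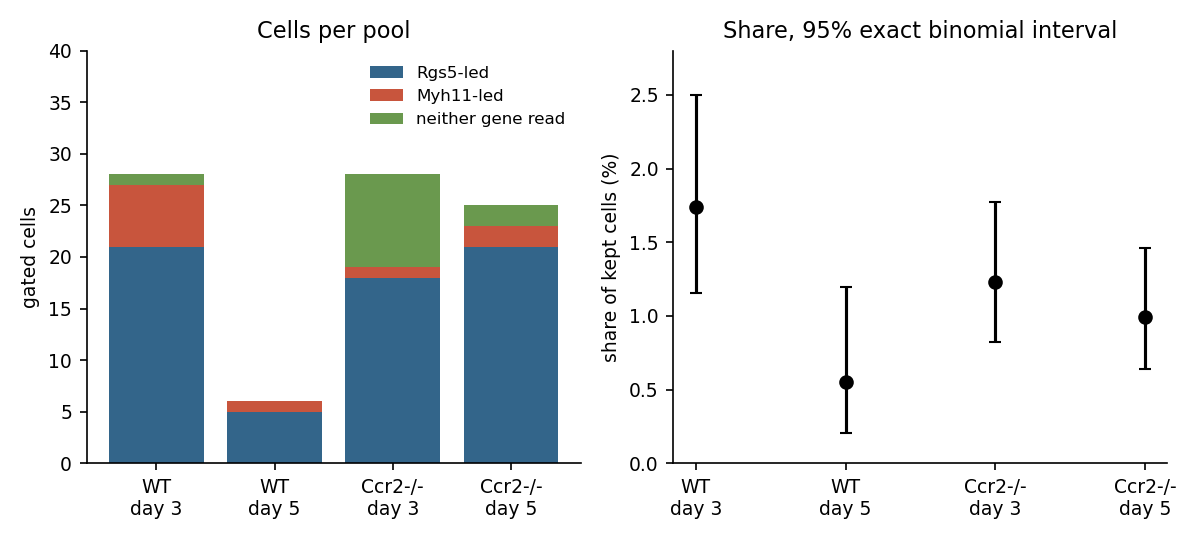
Left, number of members by leading gene in the 4 pools, stacked; right, share of members among the kept cells of each pool, in percent, with the 95% exact binomial interval, which covers counting error only. The share runs from 0.550% to 1.74%, and 9 of the 28 members in Ccr2-/- on day 3 were Notch3-only cells.

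The make-up of the members by leading gene also varied over the pools. Rgs5-led cells were 21 of 28 and 5 of 6 in WT on days 3 and 5, and 18 of 28 and 21 of 25 in Ccr2-/-. Myh11-led cells were 6, 1, 1 and 2, or 21.4%, 16.7%, 3.57% and 8% of the members. Both Ccr2-/- pools were below both WT pools (-13.3 percentage points, exact permutation test over 4 pools, p = 0.33, the smallest possible). Notch3-only cells were 1, 0, 9 and 2, or 3.57%, 0%, 32.1% and 8% (18.3 percentage points higher in Ccr2-/-, exact permutation test, p = 0.33). The 6 cells of WT on day 5 leave room for a Notch3-only share of up to 45.9% by the exact binomial interval.

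The levels of the rule's genes in the pools are a description. Rgs5 was at 3159, 3788, 3766 and 4916 CPM in WT on days 3 and 5 and in Ccr2-/- on days 3 and 5. In WT on day 5 it was at 1781 CPM as the mean of cells and at 907 CPM without the top cell. Notch3 was at 356, 109, 515 and 463 CPM, lowest in the pool of 6 cells. Myh11 was at 786, 895, 324 and 651 CPM, lowest in Ccr2-/- on day 3, the pool with 1 Myh11-led and 9 Notch3-only cells.

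Outside the rule, Acta2 was at 2681, 4074, 1129 and 3298 CPM in the same order. WT pools did not lie apart from Ccr2-/- pools, and day 5 was above day 3 in both genotypes. The difference between genotypes was -0.77 on the log2 scale (edgeR quasi-likelihood test, unadjusted p = 0.0225, adjusted p = 0.999) and that between days was 1.06 (unadjusted p = 0.00537, adjusted p = 0.99998). Without the Notch3-only cells Acta2 was at 1542 CPM in Ccr2-/- on day 3. Pdgfrb was at 571, 642, 716 and 697 CPM (genotype log2 fold change 0.23, edgeR adjusted p = 0.999), and at 151 CPM in WT on day 5 without the top cell.

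Across all genes tested, edgeR called 0 of 9184 (0%) between genotypes and 0 of 9184 (0%) between days at an adjusted p under 0.05, with reads summed per pool and the other factor as a term. The unadjusted p was under 0.05 for 315 genes (3.43%) between genotypes and 243 genes (2.65%) between days. DESeq2 called 27 of 7403 genes between genotypes and 8 of 5979 between days, and limma on the mean CPM of cells called 0 in both. These DESeq2 counts are 0.365% and 0.134% of the genes it tested. With every gene that had a read, edgeR called 53 genes (0.29%) between genotypes and 23 (0.126%) between days. With a hashtag ratio of 10 it called Ccl3, Cxcl5 and Lyz2 (0.0332%) between genotypes and Ccl9 (0.0111%) between days. Without the Notch3-only cells it called Cxcl5, Igfbp3, Ccn5, Lyz2 and Selenop (0.0585%) between genotypes. Ccn5 rested on 1 cell in each WT pool (90.5% and 98.9% of its reads), and its log2 fold change was -0.43 with a hashtag ratio of 10. Igfbp3 rested on 1 cell for 70.3% and 90.9% of its reads in the Ccr2-/- pools. For the gene lists that follow, called means by edgeR on all members, and calls under other settings are given only for genes named. The fit has 1 residual degree of freedom and a common dispersion of 0.593. The pools are the only replicates, with 1 for each genotype and day. The edgeR p-values thus rest on how far the 4 pools depart from additive effects of genotype and day, with information shared over genes. They do not measure a spread between replicate pools of 1 genotype and day.

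The fitted differences of contractile genes between Ccr2-/- and WT were mostly negative, and none passed the test. Of 23 genes 22 were tested, 0 were called, and 21 of the 22 had a negative log2 fold change, with a median of -0.64 against 0.09 for all genes tested. Tagln was at 1352, 1380, 294 and 968 CPM in the 4 pools (log2 fold change -1.35, edgeR unadjusted p = 0.0173, adjusted p = 0.999), with Ccr2-/- on day 3 lowest. Tpm2 was at 1084, 1037, 616 and 442 CPM, so both Ccr2-/- pools were below both WT pools. Such a separation of 2 pools from 2 has an exact permutation p of 0.33 at best. Its share over all genes tested was not counted, so here and below it is only a description. Cald1, which encodes the actin regulator caldesmon, was at 2023, 2247, 1429 and 1726 CPM. Mylk was at 1495, 847, 936 and 863 CPM and overlapped between genotypes. Without the Notch3-only cells the median was -0.48, with 20 of 22 negative. The share of Myh11-led cells moves in the same direction, and its part in these values was not tested.

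Of the pericyte list, all 12 genes were tested and 0 called, with a median of -0.08 and 7 negative values. Without the Notch3-only cells the median was 0.18, with 2 negative values. Abcc9 was at 292, 111, 310.7 and 454 CPM, and 88.7% of its reads in WT on day 5 came from 1 cell. Rgs4 was at 320, 77.3, 155 and 461 CPM, and Ndufa4l2 at 292, 339, 227 and 358 CPM. Mcam, a vascular adhesion gene that endothelial cells share, was at 233, 230, 205 and 198 CPM. Steap4, a metal reductase gene, was at 144, 115, 265 and 274 CPM, so both Ccr2-/- pools lay above both WT pools (log2 fold change 1.07, edgeR adjusted p = 0.999).

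Genes of vessel tone formed a list of 35, of which 19 were tested and 0 called between genotypes (median 0.04) or days (median 0.35). Ednra, the endothelin receptor of smooth muscle, was at 354, 389, 309 and 469 CPM. Gucy1a1, a subunit of the guanylate cyclase that senses nitric oxide, was at 242, 487, 197 and 237 CPM. Adra2a, an adrenergic receptor, was at 175, 391, 154 and 216 CPM. Genotypes overlapped for Ednra and Adra2a, whose day 5 pools both lay above the day 3 pools, and for Gucy1a1 both Ccr2-/- pools lay below both WT pools. The histamine receptor gene Hrh1 had a read in 1 member, at 0.424 CPM over all members.

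The ligands and receptors by which vessel cells act on each other lay in different gates, as a description over the 4 pools. Pdgfb was at 61.7 to 99.4 CPM in the endothelial gate and at 0 to 11.2 CPM in the members, whereas Pdgfrb was at 1.56 to 18.8 CPM in the endothelial gate and at 571 to 716 CPM in the members. The fibroblast gate (Pdgfra of 100 CPM or more) had Pdgfrb at 83.7 to 110 CPM. Tek, the receptor of the angiopoietins, was at 118 to 164 CPM in the endothelial gate and at 0 to 37.1 CPM in the members. Angpt1, its activating ligand, was at 30.3 to 180 CPM in the members and at 0 to 4.68 CPM in the endothelial gate. Angpt2, which can block the receptor, was at 92.3 to 272 CPM in the members and at 24.0 to 111 CPM in the endothelial gate.

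**Figure D3:**
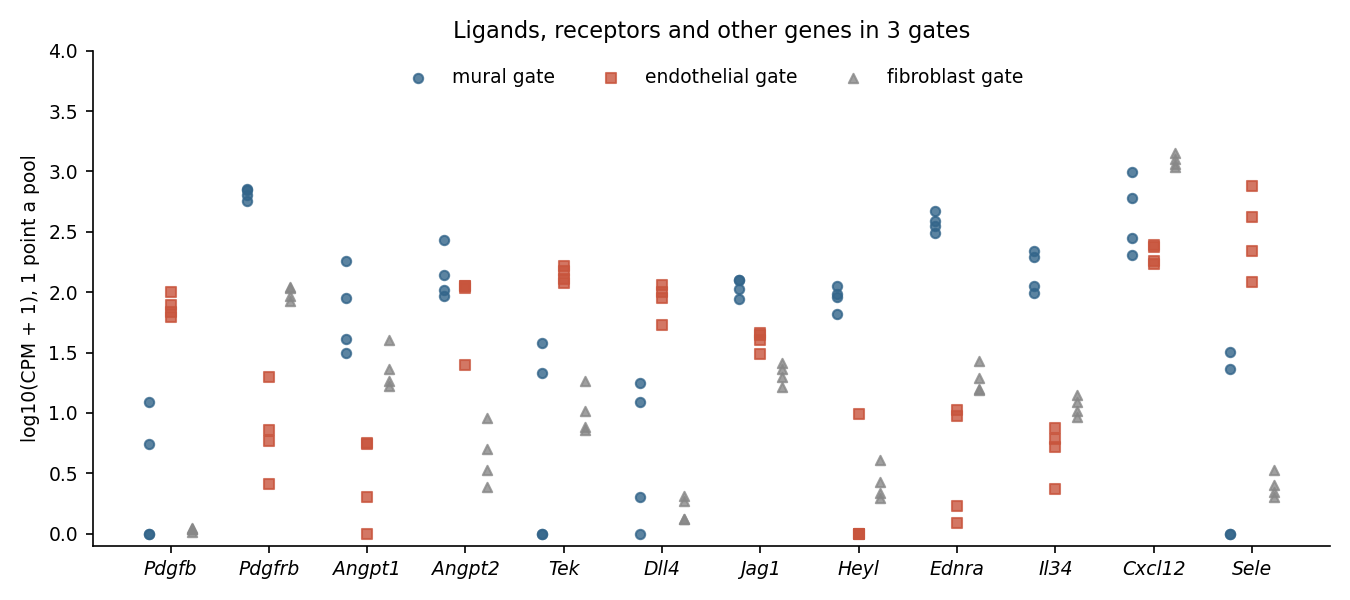
Levels of 12 vessel genes, as log10(CPM + 1) of summed reads, in the members and in the endothelial and fibroblast gates; each point is 1 pool. Pdgfb, Tek, Dll4 and Sele were highest in the endothelial gate, Pdgfrb, Heyl, Ednra and Il34 in the members, and Cxcl12 in the fibroblast gate.

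The Notch pathway split in a similar way. Dll4, an arterial Notch ligand, was at 52.3 to 113 CPM in the endothelial gate and at 0 to 16.7 CPM in the members. Jag1, a ligand that smooth muscle also makes, was at 87.1 to 125 CPM in the members and at 29.8 to 45.2 CPM in the endothelial gate. Heyl was at 64.9 to 111 CPM in the members and at 0 to 8.72 CPM in the endothelial gate. Of the 13 genes of the Notch list, 8 were tested and 0 called between genotypes (median -0.29) or days (median 0.14).

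Members also had growth factor and cytokine genes. Pdgfa was at 221 to 347 CPM against 17.1 to 50.5 CPM in the endothelial and 11.3 to 13.3 CPM in the fibroblast gate. Il34, a ligand of the macrophage receptor CSF1R, was at 97.2, 111, 193 and 217 CPM, against at most 13.2 CPM in any pool of either gate. For Il34 both Ccr2-/- pools were above both WT pools (log2 fold change 0.98, edgeR adjusted p = 0.999). Between genotypes, 0 of the 21 tested growth factor genes were called, and 0 of the 15 tested chemokine and cytokine genes, whose list holds Il34. Sele, the endothelial adhesion gene for leukocytes, was at 120 to 754 CPM in the endothelial gate and 0 to 31.2 CPM in the members.

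Genes of the basement membrane were widely read, 15 of the 19 of them in at least 25% of members. Sparcl1 was at 2353, 2816, 1643 and 2723 CPM. Col4a1, a chain of type IV collagen, was at 944, 2995, 1486 and 1865 CPM and lay at 1827 CPM in Rgs5-led and at 260 CPM in Myh11-led cells. Between days, 15 of the 18 tested genes had positive values (median 0.48) and 0 were called. Of all genes tested, 3942 of 9184 were positive between days (median -0.18). Of the fibrillar matrix genes, 16 of 17 were positive between days (median 0.88) and 15 of 17 negative between genotypes (median -0.57), with 0 called by edgeR. Col1a1 was called between genotypes by DESeq2 (adjusted p = 2.0e-06) and by edgeR with every gene that had a read (adjusted p = 8.3e-14).

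Fibroblast transcripts were read in most members, and the fibroblast list shares Col1a1 and Col3a1 with the matrix list. A sum of the 7 fibroblast genes reached 1000 CPM in 91 of the 104 members, and in 65.6% of the other kept cells, and Col1a1 was read in 90.3% of the leukocyte gate. The summed level was 11609, 20884, 5537 and 7694 CPM in the pools, and in WT on day 5 2 of the 6 cells had 56522 and 67482 CPM. One Myh11-led cell of WT on day 3, with 182166 reads, had 56158 CPM. Col1a1 was at 2342, 9507, 787 and 1193 CPM, of which 1 cell gave 59.8% and 76.8% in the WT pools. The part of these cells in the matrix values was not tested.

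Other cell types were read at lower levels. The endothelial list reached 1000 CPM in 17 members and stood at 0 in 45, and the leukocyte list did so in 15 and stood at 0 in 45. Pool sums of the leukocyte list were 1393, 790, 438 and 248 CPM, higher in both WT pools. Lyz2 alone gave 539 CPM of the sum in WT on day 5. Between genotypes, 4 of the 7 genes of the list had negative and 3 positive log2 fold changes, with 0 called. Keratinocyte genes reached 1000 CPM in 4 members, neutrophil genes in 6, Schwann cell genes in 3, lymphatic genes in 2, and skeletal muscle genes in 1, whereas perichondrial, melanocyte and adipocyte genes did so in 0. A doublet caller marked 0 of the members, but it marked only 76 of all 8359 kept cells (0.909%). At so low a share, a count of 0 in so few cells does not show that the members held no doublets.

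Genes were ranked by p among those with the same sign and at least 2-fold on both days, and the first 10 in each direction did not pass the adjustment, with edgeR adjusted p from 0.437 to 0.748. The higher ones in Ccr2-/- were Ccl3, Cxcl5, Igfbp3, Gpx3, Mt2, Pax7, Ccl4, Cxcl12, Fosb and Bmp6. The lower ones were Lyz2, Selenop, Col1a1, Ccn5, Mfap4, Dab2, Fcgr2b, Scube3, Tpx2 and Ifi27l2a.

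Several of these rested on a single cell. Ccl3, a chemokine for monocytes and neutrophils, was at 56.7, 6.27, 815 and 311.8 CPM, and without the cell with most reads it was at 31.5, 5.25, 100.98 and 66.0 CPM. Cxcl5, a neutrophil chemokine, was at 36.0, 16.7, 387 and 366 CPM, and 1 cell gave 91.0% and 81.0% of its reads in the Ccr2-/- pools. Without these cells it was at 42.6 and 75.1 CPM there, against 28.8 and 13.1 CPM in the WT pools without their top cell. Both genes stayed higher in the Ccr2-/- pools by summed reads, by a smaller margin. The share of members with a read went the other way. For Cxcl5 it was 71.4%, 66.7%, 53.6% and 40% in the same order, and for Ccl3 39.3%, 50%, 21.4% and 28%. Members of the WT pools were also deeper, at a median of 42659 and 48542 reads against 21212 and 27192. Other cells held both genes: Cxcl5 was at 886 and 468 CPM in the fibroblast gate of the WT pools and at 2759 and 2330 CPM in that of the Ccr2-/- pools, and Ccl3 was at 1460 CPM in the leukocyte gate. The cell with most Ccl3 in Ccr2-/- on day 3, at 29935 CPM, had 10222 CPM of the leukocyte list. The part of such RNA in these differences was not tested. Saa3, an acute phase gene, was at 2126 CPM in Ccr2-/- on day 3 and at 48.7 CPM without 1 cell.

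Among the other higher genes, Gpx3, an extracellular glutathione peroxidase, was at 1363, 738, 3185 and 2619 CPM, and at 1067, 493, 2522 and 2003 CPM without the top cell (log2 fold change 1.53, edgeR adjusted p = 0.577). Mt2, a metallothionein, was at 715, 366, 2094 and 1088 CPM (log2 fold change 1.57, edgeR adjusted p = 0.619). Cxcl12, a chemokine that fibroblasts and pericytes make, was at 279, 203, 996 and 602 CPM, and at 226, 93.3, 478 and 464 CPM without the top cell, which gave 60.7% of the reads in Ccr2-/- on day 3 and 78.4% in WT on day 5 (log2 fold change 1.71, edgeR adjusted p = 0.748). In these 3 genes both Ccr2-/- pools lay above both WT pools by summed reads, which their choice for at least 2-fold on both days favours. By the mean CPM of cells Cxcl12 was at 490, 144, 439 and 679 CPM, so WT on day 3 lay above Ccr2-/- on day 3. In the fibroblast gate Cxcl12 was at 1091 to 1411 CPM. Gpx3 was at 8430 CPM and Mt2 at 6347 CPM in Notch3-only cells, and without these cells the log2 fold changes were 0.78 for Gpx3 and 0.59 for Mt2 (edgeR adjusted p = 1 for both), against 1.97 for Cxcl12 (edgeR adjusted p = 0.174).

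**Figure D4:**
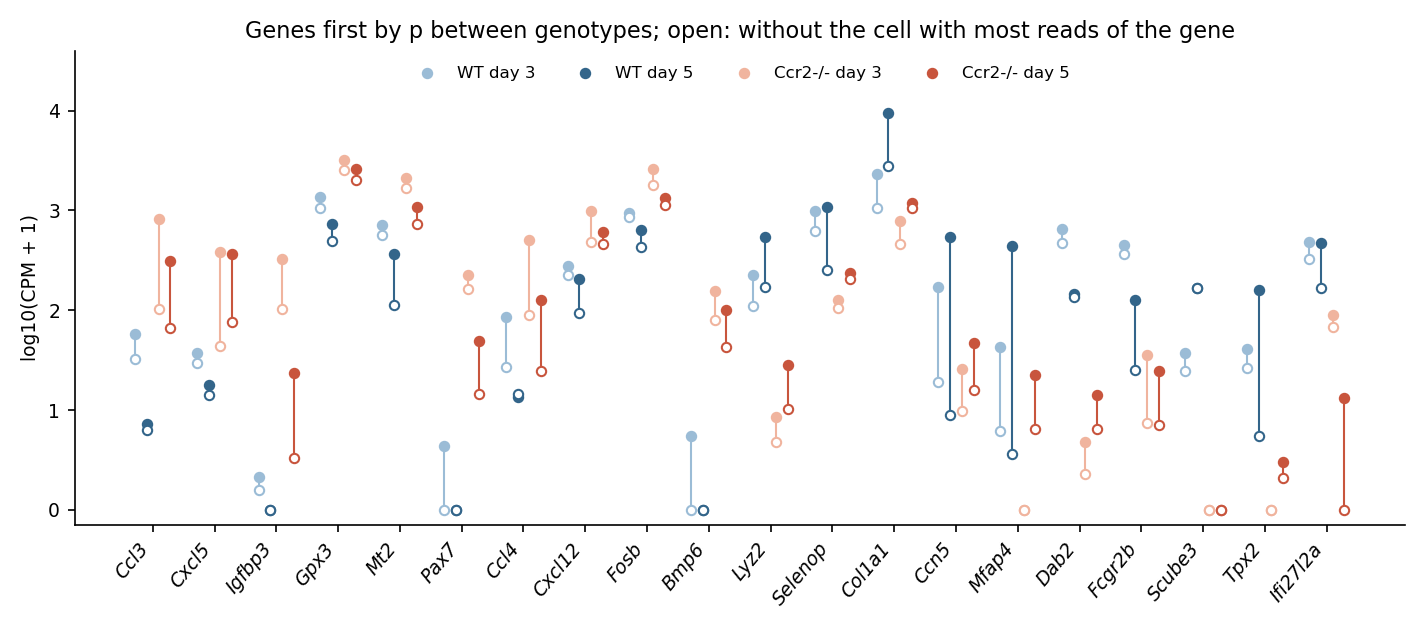
Levels in CPM, in the 4 pools, of the 20 genes ranked first between genotypes; filled points are all members and open points leave out the cell with most reads of that gene. The open points fall far below the filled ones for Ccl3 (815 to 100.98 CPM in Ccr2-/- on day 3) and Cxcl5 (387 to 42.6 CPM), and less so for Gpx3 (3185 to 2522 CPM).

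Lyz2, a lysozyme gene of myeloid cells, was at 222, 539, 7.49 and 27.6 CPM (log2 fold change -4.53, edgeR adjusted p = 0.437). The sum of the leukocyte list moved the same way, but it contains Lyz2, which made up 539 of its 790 CPM in WT on day 5. Of the 7 genes on that list, 3 had positive log2 fold changes between genotypes, Cd52, Tyrobp and Coro1a (edgeR unadjusted p = 0.171, 0.200 and 0.555). Of the 4 negative ones, Lyz2, Fcer1g, Cd53 and Laptm5, the edgeR unadjusted p was 7.26e-05, 0.00201, 0.0226 and 0.223. Pax7 was at 3.37, 0, 225 and 48.0 CPM, read in 1, 0, 8 and 2 cells, and 10 of these 11 cells were Notch3-only. Of the 259 Bmp6 reads of all members, 247 were in Notch3-only cells. Selenop was at 983, 1070, 125 and 233 CPM, and without the top cell at 624, 255, 105 and 204 CPM. In the leukocyte gate Selenop, Dab2 and Fcgr2b were at 3414, 872 and 1068 CPM, and Mfap4, Tpx2 and Scube3 at 22.9, 21.0 and 0.226 CPM. The part of leukocyte RNA in the lower genes was not tested.

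Between days the 20 genes ranked first by the same rule over genotypes had an edgeR adjusted p of 0.99998. Mfap5, Mfap4, Pi16 and Ccn2, genes of fibroblast matrix and signalling, were higher on day 5, and in WT on day 5 a single cell gave 99.3%, 99.5%, 98.4% and 99.6% of their reads. Prss23, a serine protease gene, was less dependent on 1 cell, at 248, 838, 49.9 and 321 CPM. Ccl9, a myeloid chemokine, was lower on day 5, at 385, 4.18, 210 and 0 CPM, and 1 cell gave 95.2% of its reads in Ccr2-/- on day 3, where it was at 10.2 CPM without it. That cell was Notch3-only, had no Pax7 read and had 10222 CPM of the leukocyte list. Cdkn1a, a cell cycle inhibitor, was at 302, 109, 468 and 145 CPM, with both pools of day 5 below both of day 3 and the edgeR log2 fold change at -1.60.

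Inflammatory genes were read in many members, and edgeR on all members called none. DESeq2 called Cxcl5 (adjusted p = 1.8e-05) and Cxcl12 (adjusted p = 0.0364) between genotypes. Cxcl1, a neutrophil chemokine, was at 1481, 54.4, 1244 and 1441 CPM, and Ccl2 at 1969, 27.2, 331 and 676 CPM, lowest in the pool of 6 cells in both cases. Il6 was at 1039, 64.8, 565 and 913 CPM. These genes had reads in 60.1%, 60.6% and 33.1% of the leukocyte gate too. Free RNA was not measured, so its part in low levels among the members was not tested. Of 22 chemokine and cytokine genes 15 were tested, with a median of 0.98 between genotypes and -1.26 between days. EdgeR called 0 of them, and 1, Cxcl5, without the Notch3-only cells (adjusted p = 0.0300).

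Receptors of these cytokines were read as well. Il6st, the shared receptor chain of the IL-6 family, was at 1418, 1152, 752 and 910 CPM, and Il1r1, the IL-1 receptor, at 434, 313.6, 276 and 367 CPM. In Notch3-only cells they were at 90.9 and 22.1 CPM. Of 17 receptor genes 15 were tested, with a median of 0.26 between genotypes and -0.49 between days, and 0 called. The alpha chain of the IL-4 receptor, Il4ra, was at 252 CPM in WT on day 3 and at 2.09 to 32.7 CPM in the other pools.

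Genes that respond to cell dissociation and stress, such as Fos, Jun and Egr1, had positive genotype values in 11 of 11 (median 0.87), and in 9 of 11 (median 0.41) without the Notch3-only cells, with 0 called. Acute phase genes were positive in 11 of 12 (median 0.99), and in 9 of 11 (median 0.51) without these cells. Of all genes tested, 4897 of 9184 were positive (median 0.09). Fosb was called between genotypes by edgeR with every gene that had a read (adjusted p = 0.0134). That setting kept the Notch3-only cells, which held 2552 of the 6453 Fosb reads of all members.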

How the data were processed

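TAS-Seq on BD Rhapsody gave 1 cDNA and 1 hashtag library of the 4 mixed pools. The deposited values are counts of reads, not molecules, per gene or hashtag and barcode. Per the labels the authors used Cutadapt, Bowtie2 and GRCm38.p6, and barcodes above the knee were kept. A background subtraction is described but was not visible in the values. PCR copies were counted separately, so intervals cover counting error only. Of 8953 barcodes, those with up to 20% mitochondrial reads and 200 or more genes were kept. A barcode went to the hashtag with the highest count over its column total if it was at least 3 times the next; 9 hashtag columns were not used. CPM is reads per 1000000. Members, lists and tests were chosen with earlier results of these data known, and the muscle progenitor list after the values were seen. Named genes are the rule's, up to 6 of each list by mean level, up to 10 per direction by p with the same sign and at least 2-fold in both strata, and up to 15 by ratio over the other kept cells. Genes singled out beyond these were chosen after their values were seen. Reads summed per pool were tested with edgeR 4.0.16 (TMM, filterByExpr, quasi-likelihood, Benjamini-Hochberg), with DESeq2 1.42.0 and limma 3.58.1 as alternatives, and on simulated data. Doublets were marked with Scrublet in scanpy 1.11.5. Promoters came from RefSeq on GRCm38.p6.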

Additional observations from a re-analysis of the deposited data

Results flagged for a closer look

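The share of members among kept cells moved in opposite directions at the 2 times. Ccr2-/- minus WT was -0.505 percentage points on day 3 and 0.441 percentage points on day 5. The difference was not tested, since each value is 1 pool against 1. The WT pool of day 5 held 6 members.

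The summed level of the chemokine and cytokine list was lower in Ccr2-/- on day 3 and higher on day 5, with log2 ratios of -0.61 and 1.47. The sums were 11664 CPM in WT and 7667 CPM in Ccr2-/- on day 3, and 2659 CPM and 7381 CPM on day 5. This was not tested, and a single cell gave 53.0% of all reads of the members in WT on day 5.

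Of the 17 members that no pool received, 6 had a Pax7 read. Pax7 was at 129 CPM over them (95% exact Poisson interval 104 to 159, which covers counting error only). Of these 17 cells 12 were Rgs5-led, 1 Myh11-led and 4 Notch3-only.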

How the results depend on the processing

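The difference in the share of members between genotypes changed sign to 0.100 percentage points with a hashtag ratio of 10, and ranged from -0.625 to 0.561 when 1 pool was left out, positive without WT day 3 (0.561) and without Ccr2-/- day 5 (0.0884). That between days, a mean over genotypes, kept its direction in all 12 alternatives (-0.965 to -0.461 when leaving out 1 pool), and so did that of the Myh11-led share in 8 (-15.6 to -10.9). Within Ccr2-/- alone, the share of members was 0.836% on day 3 and 0.912% on day 5 without the Notch3-only cells, against 1.23% and 0.991% with them. Calls between genotypes went from 0 to 27 with DESeq2, 53 with every gene with a read, 3 with a hashtag ratio of 10 (Ccl3 and Cxcl5 higher, Lyz2 lower) and 5 without the Notch3-only cells, an alternative added after seeing the data (Cxcl5 and Igfbp3 higher, Ccn5, Lyz2 and Selenop lower). Calls between days went to 8, 23 and 1 (Ccl9) under the first 3 of these. The cause was not tested. Ccn2 changed sign between days to -0.27 with a hashtag ratio of 10. Of the log2 fold changes of named genes, 171 of 218 by genotype and 198 of 216 by day were counted as keeping direction and side of the threshold. Another 47 and 17 passed it. The kept ones include the values within 1 day or 1 genotype. The choice of genes fixed the direction of these in advance, and they had no adjusted p. Levels were less stable: 208 of 360 recomputed CPM of a gene in a pool moved beyond their counting interval. Of 268 listed genes 90 were at 100 CPM or more in all 4 pools, and 68 to 94 under the 6 alternatives. The test between Myh11-led and Rgs5-led cells was not run, because 1 pool alone held 5 cells of both. No paired analysis was possible because each genotype and day had 1 pool and no replicate numbers.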

Other observations

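The interferon list held both common and rare transcripts. Ifitm3, an antiviral membrane protein gene, was at 4200, 2525, 4474 and 4189 CPM in WT on days 3 and 5 and in Ccr2-/- on days 3 and 5, and was read in 96 of the 104 members. Gbp2, a guanylate-binding protein gene induced by interferon, was at 193, 508, 267 and 193 CPM. Of 17 interferon genes 16 were tested, with a median log2 fold change of -0.19 between genotypes and -0.15 between days and 0 called by edgeR. Cxcl9, a chemokine induced by interferon gamma, was read in 12 members, all Rgs5-led, and was at 559, 1012, 450 and 390 CPM.

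Genes of cell division were sparse. Mki67 was read in 10 members, 8 of them Rgs5-led and 2 Myh11-led, at 26.4, 92.0, 0 and 21.5 CPM. Of 12 tested genes of the list, 11 had positive values between days (median 2.07) and 0 were called. The summed list reached 1000 CPM in 4 and 1 members of WT on days 3 and 5, and in 1 and 6 members of Ccr2-/-. Glycolysis genes had negative values between days in 10 of 10 (median -0.43), with 0 called by edgeR. Of all genes tested, 5242 of 9184 were negative between days (median -0.18).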
